A study of Mus musculus with 12 samples.

Results

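Msc (also called MyoR) and Tcf21 (also called capsulin) are a pair of related basic helix-loop-helix (bHLH) transcription factors of the head muscle lineage. Each was found by its symbol in the platform's probe annotation, which gave 1 probe set for Msc and 1 for Tcf21, so that 2 of the 12393 genes with a probe set of their own are described. Both passed the filter on dim signals and were among the 7721 genes tested. The samples were cells of ICR mouse embryos carrying Myf5Cre and RosaYFP, which were sorted on yellow fluorescence from the head and from the trunk on embryonic day 9.5, 10.5 or 11.5 (E9.5, E10.5, E11.5). This gave 6 groups of 2 arrays, 12 arrays in all. All 6 groups share the strain and both alleles. The Cre is driven from Myf5, a muscle determination gene, and the label stays on in descendants, so a sorted cell need not express Myf5 at collection. Whether paired arrays in a group came from separate embryos, litters or pools is not in the labels, so the p-values measure the spread between these samples, which may be technical.

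bHLH factors bind DNA in pairs at short sequences called E-boxes. The myogenic members (Myf5, Myod1, Myog and Myf6) pair with the widely expressed E proteins and switch on muscle genes, whereas Msc and Tcf21 were described as repressors that compete for the same partners and sites. In mouse both mark the mesoderm of the branchial arches that gives rise to the jaw muscles, and embryos lacking both genes fail to form chewing muscles. Outside the head Msc is found transiently in trunk muscle precursors, and Tcf21 in the mesenchyme and mesothelium of internal organs.

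Cell type markers were read first. Myf5 lay above the array median on all 12 arrays, while of 12 skeletal muscle genes on the array 10 lay below the median on each head array at E9.5 and 9 to 12 on the trunk arrays of that day. The head and trunk arrays at E11.5 had only 1 to 3 and 2 of these below it. The median signal of an array lay between 108.6 and 110.4 intensity units, and serves here as the level under which a signal is not read as a measured amount. Correlation across probe sets between the arrays of a group was 0.948 to 0.965 (Pearson r of log2 signal), a description over genes, which are not independent replicates.

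Tcf21 is shown with the 250 bases before its annotated start, because the promoter windows used here held 1 for Tcf21 and 0 for Msc. The sequence is chr10:22820144-22820393 of GRCm38.p6, minus strand, from RefSeq, written 5′ to 3′ in lower case, where an E-box would stand in capitals.
Tcf21 promoter: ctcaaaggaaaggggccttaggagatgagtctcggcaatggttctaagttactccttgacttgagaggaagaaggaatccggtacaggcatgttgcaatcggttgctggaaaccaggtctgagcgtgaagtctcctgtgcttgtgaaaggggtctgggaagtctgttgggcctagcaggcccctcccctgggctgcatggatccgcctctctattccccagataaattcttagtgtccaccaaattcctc
On both strands these letters hold no match to CANNTG, the E-box, or to its variant CAGCTG, which 66.2% and 13% of 32851 promoter windows of this length hold. They also hold none of TAATTA (a homeodomain core, 4.84% of windows), TAATCC (bound by Pitx factors, 6.25%), or GGTGTGA (a T-box sequence, 3.33%). CAGCTG is also a CANNTG match. In the gene order of that assembly Msc, on chromosome 1, stands next to Eya1, and Tcf21, on chromosome 10, stands next to Eya4, and both neighbours encode Eya transcriptional cofactors. Eya1 and Eya4 have probe sets on the array, but neither passed the filter on dim signals. Tbpl1, on the other side of Tcf21, did not pass the test between head and trunk (log2 0.03, adjusted p = 0.94 by limma).

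Msc had a signal of 698 and 1103 intensity units in head at E9.5, 1674 and 2194 in head at E10.5, and 3557 and 3662 in head at E11.5. In trunk it was 45.0 and 71.5 at E9.5, 309 and 212 at E10.5, and 914 and 619 at E11.5. Both arrays of every later stage lay above both arrays of the stage before it, in head and in trunk alike, which held for 1.3% of the genes tested. Both head arrays lay above both trunk arrays at every stage, which held for 5.21%. Msc was one of 30 genes (0.389%) with both arrangements. The group means ± SD were 901 ± 287, 1934 ± 368 and 3609 ± 74.0 in head from E9.5 to E11.5, against 58.2 ± 18.7, 261 ± 69.1 and 766 ± 208 in trunk (n = 2 arrays each). Both trunk arrays at E9.5 lay below the array median, so no amount of Msc was measured there.

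Tcf21 had a signal of 623 and 726 in head at E9.5, 532 and 749 in head at E10.5, and 521 and 488 in head at E11.5. In trunk it was 7.18 and 55.2 at E9.5, 74.4 and 50.6 at E10.5, and 59.9 and 82.1 at E11.5. All 6 head arrays lay above all 6 trunk arrays, as they did for 128 of the genes tested (1.66%). All 6 head arrays lay above the array median and all 6 trunk arrays below it, which held for 15 genes (0.194%). Named after their values were seen, its other members include the homeobox genes En2 and Dlx2, the transcription factor Runx1 and the retinoid receptor Rxrg. The means ± SD were 675 ± 72.4, 641 ± 154 and 504 ± 22.8 in head from E9.5 to E11.5, against 31.2 ± 33.9, 62.5 ± 16.8 and 71.0 ± 15.7 in trunk (n = 2 arrays each).

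**Figure D1:**
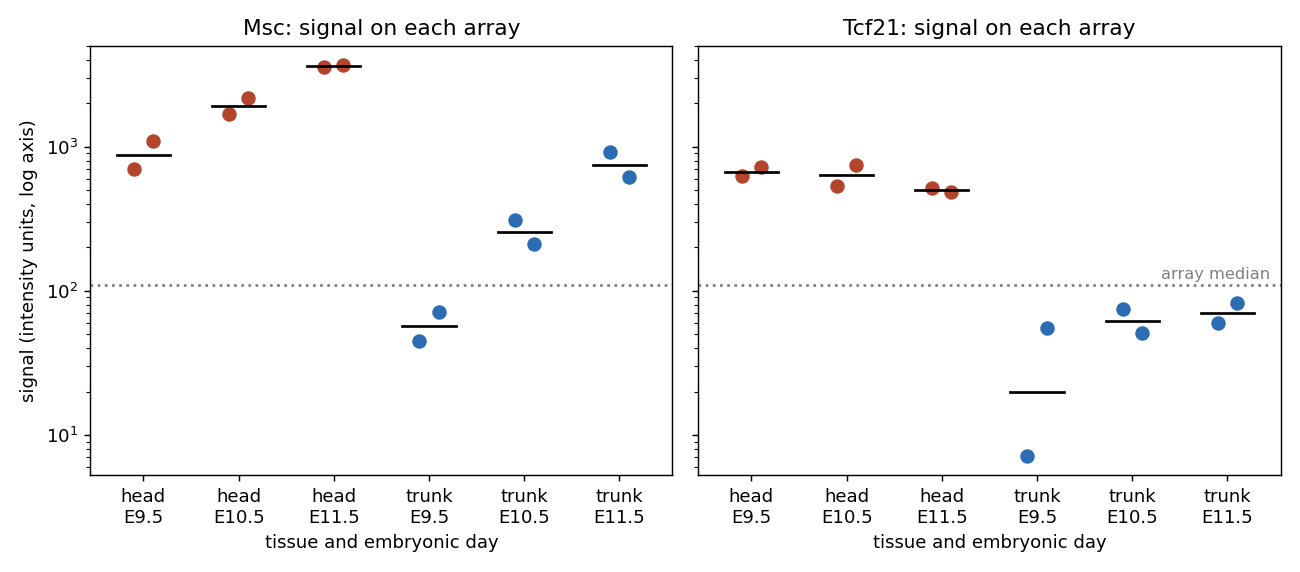
Signal of Msc (left) and Tcf21 (right) on each of the 12 arrays, in intensity units on a log axis, by tissue and embryonic day. Points are arrays, bars are geometric means of 2 arrays and the dotted line is the array median; Msc climbs with stage in both tissues, while Tcf21 lies between 488 and 749 in head and between 7.18 and 82.1 in trunk.

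Over the mean of the 3 stages both genes were higher in head than in trunk. Msc was higher by log2 3.04 ± 0.18 (SE, 6 arrays per tissue; limma, adjusted p = 8.56e-07), at least 6.61-fold. Tcf21 was higher by 3.76 ± 0.39 (adjusted p = 6.67e-05), at least 5.46-fold. A fold is written "at least" where arrays of the dimmer side lay below the array median; these were raised to that median before the fold was taken, and the log2 value is fitted to the signals without this floor. Among all genes tested, 6.85% were called higher in head in this comparison. With signals below the array median raised to it, the differences were 2.72 for Msc and 2.45 for Tcf21 (adjusted p = 5.33e-06 and 1.33e-06), the reverse of the order above. In sorted pools, fewer cells with a transcript and less transcript per cell cannot be told apart, which holds for every difference given here.

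The difference was tested at each stage as well. At E9.5 the excess of Msc in head was at least 8.03-fold (log2 3.95 ± 0.31, adjusted p = 1.68e-05) and that of Tcf21 at least 6.15-fold (5.08 ± 0.67, adjusted p = 0.000837), where 4.68% of genes were called higher in head. At E10.5 Msc was 7.49-fold higher (2.90 ± 0.31, adjusted p = 0.000547) and Tcf21 at least 5.74-fold (3.36 ± 0.67, adjusted p = 0.0186), where the share of genes called higher was 2.45%. At E11.5 Msc was 4.80-fold higher (2.26 ± 0.31, adjusted p = 0.0037), one of 55 genes called higher in head (0.712%). Msc was also one of 22 genes (0.285%) called higher in head at each of the 3 stages.

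Tcf21 did not pass at E11.5 (log2 2.85 ± 0.67, adjusted p = 0.0536), although its head arrays, at 521 and 488, lay at least 4.60-fold above its trunk arrays. It passed at that stage when trunk E9.5 replicate 1, the array at 7.18, was left out (adjusted p = 0.000814), when trunk E9.5 replicate 2 was left out (0.000999), and when only the 4 arrays of E11.5 were fitted (0.00718). Its call at E10.5 ended without any 1 of the 4 arrays of that stage, with adjusted p of 0.0906 and 0.0588 without head replicates 1 and 2 and 0.0942 and 0.143 without trunk replicates 1 and 2.

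Msc rose with stage in both tissues. Within head it rose by log2 2.04 ± 0.31 between E9.5 and E11.5, 4.11-fold (limma, adjusted p = 0.00277), where 2.75% of genes were called higher at E11.5. Within trunk it rose by 3.73 ± 0.31 over the same days, at least 6.88-fold (adjusted p = 1.92e-05), where 8.73% were called higher. Of the single days, the step from E9.5 to E10.5 in trunk passed the test (2.17 ± 0.31, at least 2.34-fold, adjusted p = 0.00168; 5.47% of genes called higher). The second day in trunk (1.55 ± 0.31, 2.94-fold, adjusted p = 0.146), the first day in head (1.13 ± 0.31, 2.18-fold, adjusted p = 0.111) and the second day in head (0.91 ± 0.31, 1.88-fold, adjusted p = 0.179) did not, although the arrays of those stages did not overlap.

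Tcf21 did not pass the test for any pair of stages. In head it differed by log2 −0.42 between E11.5 and E9.5 (95% confidence interval −1.87 to 1.04, adjusted p = 0.815), by −0.09 between E10.5 and E9.5 (−1.55 to 1.37) and by −0.32 between E11.5 and E10.5 (−1.78 to 1.13). Each interval includes 0 and reaches past 1 log2 unit on both sides. For Msc in head the interval between E11.5 and E9.5 was 1.37 to 2.71, and whether the genes differ in their change was not tested. In trunk every signal of Tcf21 lay below the array median, so its fitted log2 differences there (1.82 between E11.5 and E9.5, adjusted p = 0.1; 1.62 between E10.5 and E9.5, adjusted p = 0.181) are not measured changes. Without trunk E9.5 replicate 2, which leaves the array at 7.18 alone in its group, these were 3.29 and 3.09 and passed (adjusted p = 0.000263 and 0.000679).

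Ordered by mean level, Msc was highest in head at E11.5, then in head at E10.5, head at E9.5, trunk at E11.5, trunk at E10.5 and trunk at E9.5. The neighbours that overlapped were head at E9.5, at 698 and 1103, and trunk at E11.5, at 914 and 619 (difference log2 0.22, 95% confidence interval −0.45 to 0.90). Every other pair of neighbours was separated on both arrays. For Tcf21 the order was head at E9.5, E10.5 and E11.5, then trunk at E11.5, E10.5 and E9.5. Its head signals at E9.5 and E10.5 overlapped, those at E11.5 lay just under both, and neighbouring trunk groups overlapped below the median, while those at E11.5 and E9.5 did not overlap.

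Whether head and trunk differed in their change over time was tested directly. For Msc the change between E9.5 and E11.5 was smaller in head than in trunk by log2 1.69 as fitted (coded as head minus trunk, −1.69 ± 0.44, 95% confidence interval −2.64 to −0.74), which did not pass after adjustment (unadjusted p = 0.00226, adjusted p = 0.0959), while 1.48% of genes were called in this test. For Tcf21 it was −2.23 ± 0.95 (adjusted p = 0.354), and without trunk E9.5 replicate 2 it was −3.70 and passed (adjusted p = 0.00304). With signals below the array median raised to it, the values were −0.74 for Msc and −0.42 for Tcf21 (adjusted p = 0.498 and 0.627). For the first day the differences were −1.05 for Msc and −1.71 for Tcf21 (adjusted p = 0.371 and 0.504; for Tcf21 −3.19 and 0.0113 without that array), and with signals raised to the median both were −0.10 (adjusted p = 0.953 and 0.927). For the second day they were −0.64 and −0.52 (adjusted p = 0.626 and 0.865).

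**Figure D2:**
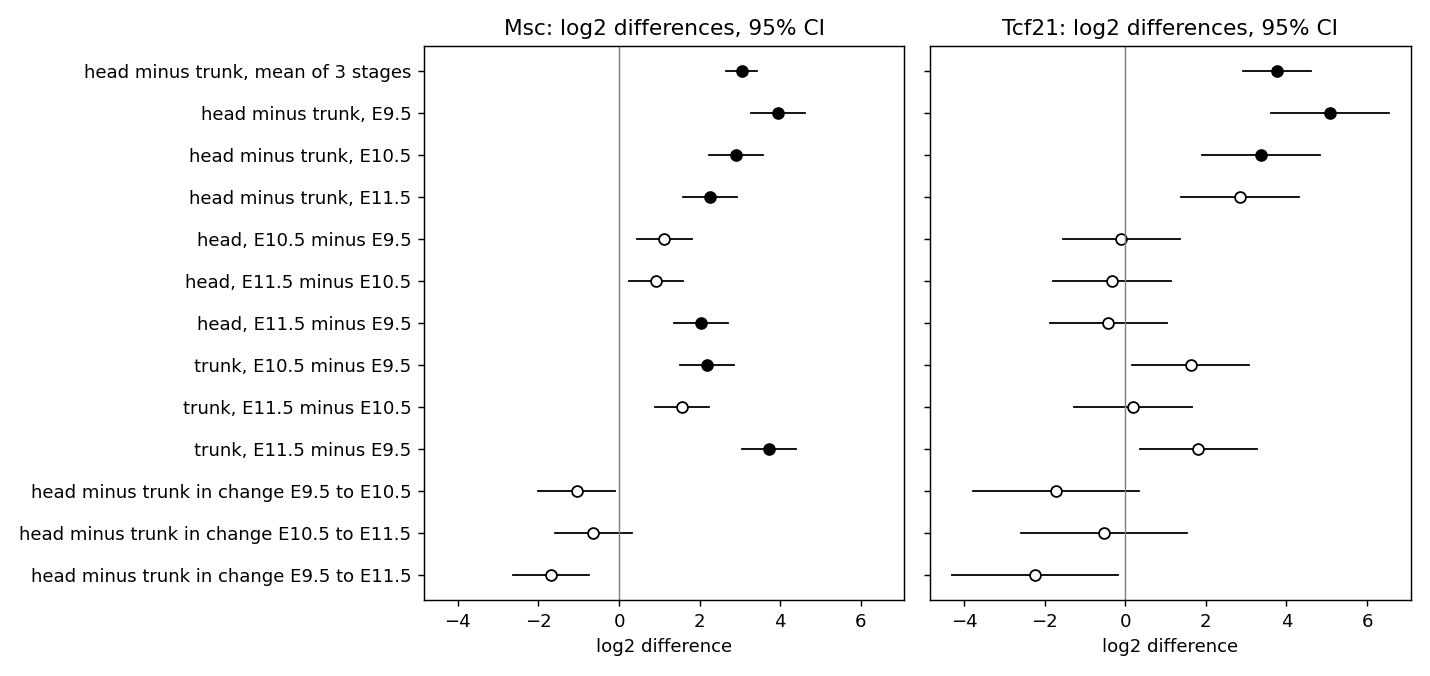
Fitted log2 differences of Msc (left) and Tcf21 (right) in the 13 comparisons, with 95% confidence intervals from limma; filled points passed an adjusted p of 0.05 and open points did not. Msc passed in all 4 head against trunk comparisons, in both changes between E9.5 and E11.5 and in the first day in trunk, whereas Tcf21 passed in 3 head against trunk comparisons and in no change with stage.

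Among bHLH factors related to Msc and Tcf21, 7 of 8 listed were on the array and 3 passed the filter, 2 of them lower in head and none higher (median log2 −1.51, against −0.00092 over all genes tested). Tcf15 (paraxis), which is needed for somites to become epithelial, had 47.0 to 103 intensity units over the 6 head arrays and 305 to 1117 over the 6 trunk arrays. All its head arrays lay below the array median and all its trunk arrays above it, the reverse of Tcf21, and it was at least 6.43-fold lower in head (log2 −3.29 ± 0.24, adjusted p = 3.81e-06). Twist1, a repressor of myogenesis in mesenchyme, was 2.85-fold lower (−1.51, adjusted p = 0.000187). Twist2 had a log2 difference of −0.35 (adjusted p = 0.182). The relatives Scx, Tcf23, Hand1 and Hand2 did not pass the filter, and 3.61% of all genes tested were called lower in head.

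The E proteins, with which bHLH factors pair, lay above the median on every array. Of Tcf3, Tcf4 and Tcf12 none passed between head and trunk (log2 0.10, 0.05 and −0.16, adjusted p of 0.765, 0.706 and 0.0624; median 0.05). Tcf12, a partner of myogenic factors, passed as lower without head E9.5 replicate 1 (−0.20, adjusted p = 0.0188) and with its probe sets averaged (−0.30, adjusted p = 0.0296). The Id proteins lack a DNA-binding region and take E proteins out of use. Of the 4 members, Id4 was 1.67-fold higher in head (0.74, adjusted p = 0.031), and the others had differences of 0.02 to 0.23 (list median 0.17). Of all genes tested, 6.85% were called higher in this comparison. The call of Id4 ended without any of 8 single arrays, the adjusted p then reaching 0.0911 without trunk E10.5 replicate 2.

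The myogenic bHLH factors, whose activity Msc can repress, were set beside it. Of Myf5, Myod1 and Myog, Myog alone passed over the mean of the 3 stages, lower in head (−1.01, at least 1.33-fold, adjusted p = 0.00808; list median 0.24), and Myf6 did not pass the filter. Myog lost this call when signals below the array median were raised to it (−0.41, adjusted p = 0.247). Of all genes tested, 3.61% were called lower in head over the mean. By stage, Myf5 was lower in head at E9.5 (−0.84, adjusted p = 0.0308) and higher at E10.5 (0.96, adjusted p = 0.0275, both by limma). These calls ended without any of 4 and any of 3 single arrays. The mean signal of Myog at E11.5 was 1449 in head and 976 in trunk, a difference that was not called. Myod1, which drives commitment to muscle, did not pass over the mean of the 3 stages (0.37, adjusted p = 0.221). The signals of Myod1 were 56.9 and 96.5 at E9.5, 319 and 216 at E10.5 and 2156 and 2337 at E11.5 in head, against 70.1 and 73.5, 226 and 334, and 1198 and 879 in trunk. Like Msc it climbed at each stage in both tissues, but its head and trunk arrays overlapped at E9.5 and E10.5, where those of Msc did not. Between E9.5 and E11.5 Myod1 rose at least 20.4-fold in head (adjusted p = 6.91e-06) and at least 9.39-fold in trunk (adjusted p = 1.34e-05). Myog, which starts terminal differentiation, rose at least 13.1-fold in head and 5.84-fold in trunk (adjusted p = 8.7e-06 and 0.000734). Myf5 rose 2.80-fold in head (adjusted p = 0.00165) and had a log2 difference of 0.03 in trunk (adjusted p = 0.953).

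Of 14 regulators of pharyngeal mesoderm and branchiomeric muscle, 12 were on the array and 9 were tested. At E11.5 alone 2 of the 9 were higher in head and 1 lower (0.712% and 1.36% of all genes tested). Over the mean of the 3 stages 7 of the 9 were higher in head and none lower (median log2 1.91). Of all genes tested, 6.85% were called higher over that mean and 3.61% lower. The 7 included Tbx1 and Isl1, described below with the profiles, Ebf1 (1.74, adjusted p = 8.2e-06), Lhx2 (at least 2.25-fold, adjusted p = 1.17e-05) and Tlx1 (at least 1.52-fold, adjusted p = 0.000467), all transcription factors. Lhx2 and Tlx1 lay below the array median on all 6 trunk arrays, so their fitted log2 differences (4.81 and 3.22) are not measured amounts. Ebf3 was the weakest of the 7 (0.53, adjusted p = 0.0319), and its call ended without any of 7 single arrays, the adjusted p then reaching 0.105 without trunk E10.5 replicate 2. Of 9 tested regulators of the dermomyotome, a layer of the somite from which trunk muscle arises, 6 were lower in head and none higher (median −2.08), among them Meox2 (−2.08), Meox1 (−2.97, at least 7.29-fold), Dmrt2 (at least 2.91-fold lower) and Sim1 (at least 5.35-fold lower), with adjusted p no higher than 4.49e-06. Sim1 and Dmrt2 lay below the array median on all 6 head arrays. At E11.5 alone 3 of the 9 dermomyotome regulators were lower in head and 1, Lbx1, was higher (2.75, adjusted p = 0.0461 by limma). That call of Lbx1 ended without any of 8 single arrays. Over the mean of the 3 stages Lbx1 did not pass, but with signals raised to the median it was higher in head (0.86, adjusted p = 0.00159). Tcf15 belongs to this list as well.

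**Figure D3:**
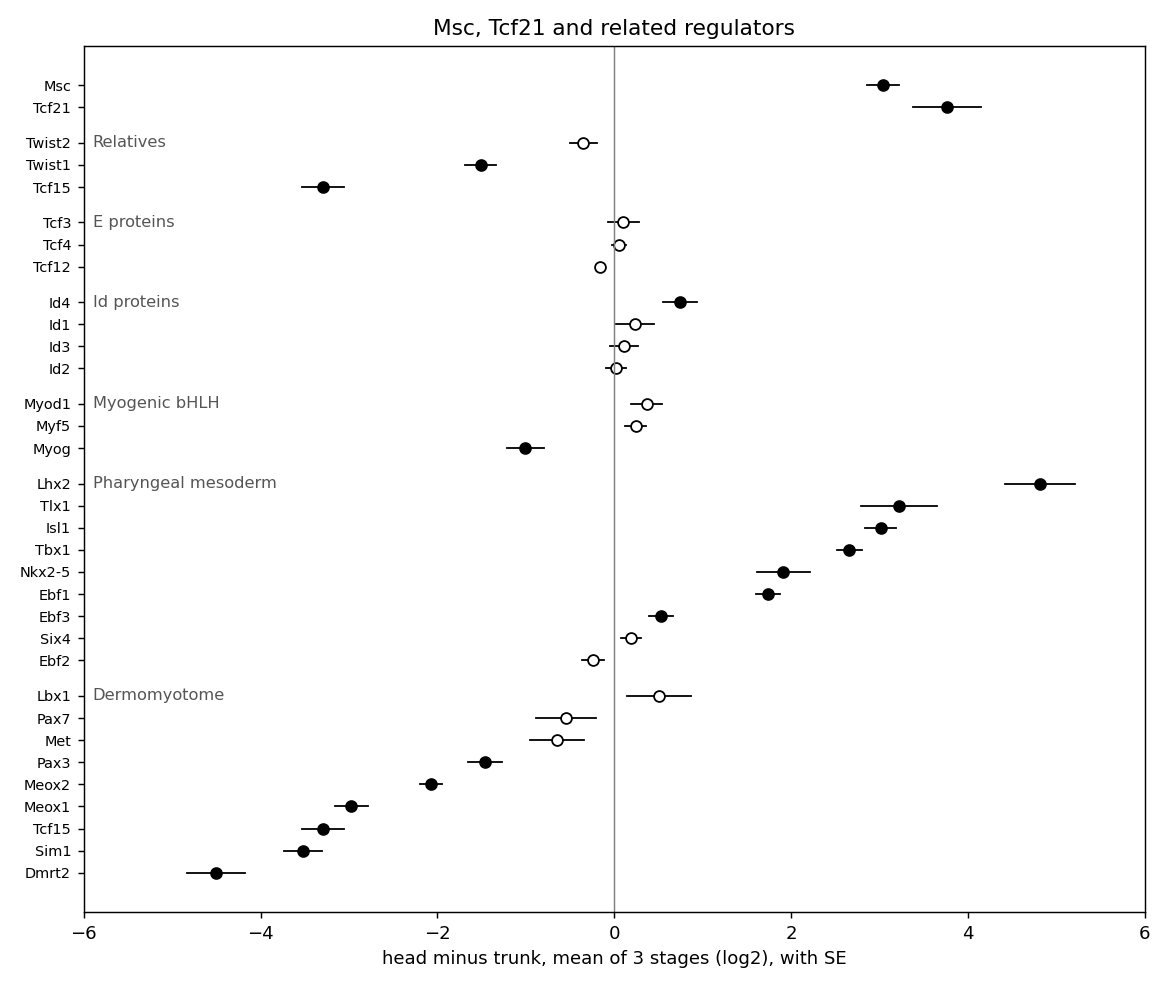
Head minus trunk log2 difference over the mean of the 3 stages for Msc, Tcf21 and the tested members of 6 lists, with standard errors from limma; filled points passed an adjusted p of 0.05. Msc (3.04) and Tcf21 (3.76) lie on the head side with most pharyngeal mesoderm regulators, and Tcf15 (−3.29) lies on the trunk side with most dermomyotome regulators.

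Tcf21 is also known from mesothelium, epicardium and fibroblasts, so their genes were counted. Over the mean of the 3 stages, 6.85% of all genes tested were called higher in head and 3.61% lower. Of 10 genes of mesothelium and epicardium 8 were on the array and 4 were tested. None was higher in head, and 2 were lower (median log2 −0.82): Aldh1a2, the retinoic acid synthesis enzyme (−3.40, at least 7.99-fold, adjusted p = 0.000407), and Bnc1 (−2.06, adjusted p = 3.25e-05). The other tested members, Tbx18 (0.41) and Krt19 (0.45), did not pass, and the defining markers Wt1, Upk3b and Msln did not pass the filter. Of 11 fibroblast and muscle connective tissue genes 8 were tested, with none higher and 3 lower in head (median −0.35): Pdgfra (−1.23, adjusted p = 0.000379), Col1a2 (−0.74, adjusted p = 0.0133) and Postn (−0.49, adjusted p = 0.0435). Postn lost its call without any of 9 single arrays (adjusted p of up to 0.132, without trunk E11.5 replicate 1). Col1a2 lost it with the probe sets of suffix _s, _x and _a left out (−0.25, adjusted p = 0.501). At E9.5, however, 3 of the 8 fibroblast and connective tissue genes were higher in head and 1 lower (4.68% and 1.24% of all genes tested). Both tested smooth muscle genes, of 6 on the array, were higher in head (median 0.99): Myocd (1.28, adjusted p = 0.00579) and Acta2 (0.70, adjusted p = 0.024). Tagln, Myh11, Cnn1 and Smtn did not pass the filter, and at E11.5 alone neither tested gene was called. Myocd lost its call with signals raised to the array median (0.76, adjusted p = 0.0503). Acta2 lost its call without any of 6 single arrays (adjusted p of up to 0.0766, without head E10.5 replicate 1).

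The genes whose profile was most like that of each factor were found by the root mean square difference between group means of log2 signal over the 6 groups, each gene centred on its own mean. Signals below the array median were not raised to it here, so the ranking also uses values that are not measured amounts. Among these are both trunk arrays of Msc at E9.5 and all 6 trunk arrays of Tcf21. For Msc the closest was Mab21l1 (0.40), which lay below the array median on 10 of the 12 arrays. It was followed by Rxrg, a retinoid receptor (0.58), Rspo2, a secreted agonist of Wnt signalling (0.63), Rab6b (0.75), the glutamate transporter gene Slc17a6 (0.75), the LIM-homeodomain gene Lhx8 (0.76), Runx1 (0.79), Mmd2 (0.79), and the synaptic genes Snap25 (0.83) and Snap91 (0.86). Rspo2, above the median on 10 arrays, had 656 to 1216 intensity units over the head arrays and 28.3 to 488 over the trunk arrays. Lhx8 and Runx1 were, like Msc, called higher in head at each of the 3 stages. Lhx8 lay below the median on 7 of the 12 arrays, Rxrg and Runx1 on 6, and Slc17a6 and Mmd2 on 5.

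For Tcf21 the closest profile was that of the LIM-homeodomain gene Isl1, a marker of cardiac progenitors of the pharynx (0.49), and the next that of Tbx1, whose T-box protein is needed for the pharyngeal arches (0.60). Isl1 had 2875 to 5482 intensity units over the head arrays and 154 to 1025 over the trunk arrays, and Tbx1 had 587 to 1064 and 66.1 to 207. In neither did the tissues overlap. Then came Arap3 (0.64), Kazald1 (0.68), the kinase gene Syk (0.74), En2 (0.79), the endothelial receptor gene Cd93 (0.79), Lhx2 (0.79), Tlx1 (0.80) and the semaphorin receptor gene Plxnd1 (0.82). Of these, Tlx1 lay below the array median on 9 of the 12 arrays, Lhx2 on 8, Arap3 on 7, and Kazald1, Syk and En2 on 6. The trunk part of the Tcf21 profile lay wholly below the median, so its likeness to any gene within trunk is not a measured one. The lists of 10 for Msc and for Tcf21 shared 0 genes. At a difference of 0.98 Tcf21 was 21st of 7720 in the order for Msc, and Msc was 24th in the order for Tcf21.

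**Figure D4:**
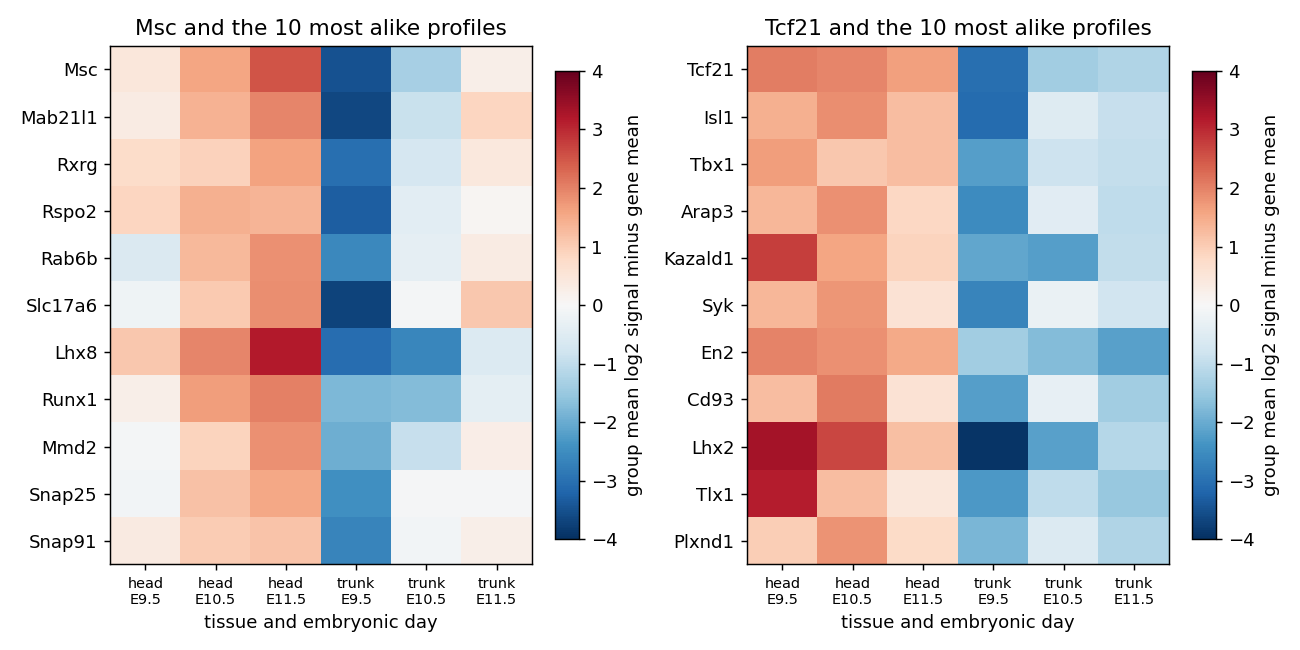
Group means of log2 signal, each gene centred on its own mean over the 6 groups, for Msc (left) and Tcf21 (right) and the 10 genes of smallest root mean square difference from each; red is above and blue below the gene's mean. In head all profiles like Msc except Rspo2 increase at each stage, whereas those like Tcf21 are red in head and blue in trunk at every stage, and Tbx1, Kazald1, En2, Lhx2 and Tlx1 are, like Tcf21, highest in head at E9.5.

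Over the mean of the 3 stages, markers of some other cell types were, like Msc and Tcf21, mostly higher in head. Those of others were not or were lower. Of all genes tested, 6.85% were called higher in that comparison and 3.61% lower. The part of these cell types in the differences of Msc and Tcf21 was not tested. Of 12 tested neuronal genes, head arrays had 10 higher and none lower over the mean of the 3 stages (median log2 1.22), led by Neurod1 (2.41). The summed signal of the list was 5958 to 12722 over the head arrays, against 747 to 1233 in trunk at E9.5 and 5680 to 6998 in trunk at E10.5 and E11.5. Endothelial genes were higher in head in 10 of 10 tested (median 1.52), among them Cldn5 (1.90), Kdr (2.18) and Sox17 (2.53). Sox18 was the weakest of the 10 (1.01, adjusted p = 0.0309 by limma), and its call ended without any of 8 single arrays. The summed endothelial signal was 2216 to 6229 over head and 772 to 1671 over trunk arrays, while Pecam1 and Erg lay below the median on all 12 arrays. Of 10 epithelial genes 8 were higher (median 1.20), with 1878 to 8203 over head and 1058 to 2847 over trunk arrays. Of 5 macrophage and leukocyte genes 4 were higher (median 1.07), with 902 to 3286 and 500 to 1000, and Ptprc, Cd68, Fcgr1, C1qa and Aif1 lay below the median throughout. At E11.5 alone 1 of 12 neuronal, 3 of 10 endothelial, 0 of 10 epithelial and 0 of 5 macrophage genes were higher. None was lower, and the medians were 0.75, 1.17, 0.81 and 1.21 (0.712% of all genes tested were called higher then). At E10.5 1 of 12 neuronal genes was higher.

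Ectomesenchyme of the neural crest, which also fills the branchial arches, had a summed signal of 1414 to 2963 over the head arrays and 1087 to 2307 over the trunk arrays. At E10.5 it was 2680 to 2742.5 in head and 1087 to 1109 in trunk, which did not overlap. Of its 7 tested markers Dlx2 (1.67, at least 1.80-fold) and Dlx5 (2.24, at least 1.13-fold) were higher in head and none was lower (median 0.67). Over the mean of the 3 stages, used for this list and those below, 6.85% of all genes tested were called higher and 3.61% lower. Dlx5, below the median on all 6 trunk arrays, lost its call with signals raised to the median (0.18, adjusted p = 0.205). Leaving out single arrays changed calls on this list in both directions. Sox10 was lower in head without trunk E9.5 replicate 1 (−1.87), and Tfap2b without head E10.5 replicate 2 (−1.73). Barx1 was higher in head without head E10.5 replicate 1 (2.0012), and Tfap2a without trunk E11.5 replicate 2 (0.85). Dlx6 and Alx4 lay below the median on all 12 arrays. Of 5 erythroid genes Tal1 was higher (median 0.54; 8549 to 25355 over head and 9727 to 16927 over trunk arrays), a call that ended without any of 8 single arrays (adjusted p of up to 0.116, without head E11.5 replicate 1). Without head E11.5 replicate 2, 3 others were higher instead, the globin genes Hbb-bh1 (1.51), Hba-x (0.90) and Hbb-y (0.37), so the count was 0 to 3 over single arrays left out. Of 6 neural progenitor genes Hes5 and Pax6 were lower (median −0.27; 1648 to 4059 and 2992 to 3913), and Pax6 lost its call without any of 8 single arrays and Hes5 without any of 4 (adjusted p of up to 0.127 and 0.066, both without trunk E10.5 replicate 2). Of 10 skeletal muscle genes 5 were lower (median −0.82; 779 to 10138 and 335 to 12453), and 2 to 5 were without single arrays. The lowest count came without trunk E10.5 replicate 2 and without trunk E11.5 replicate 1, and it was 3 without head E10.5 replicate 1, head E11.5 replicate 2 or trunk E10.5 replicate 1. Tnnc2 lost its call without any of 7 single arrays, Myh3 without any of 6 and Mylpf without either of 2. By stage, 2 of the 10 skeletal muscle genes were higher in head at E9.5 and none lower. At E10.5 3 were lower and none higher, and at E11.5 none was called either way. Of 2 tested cardiomyocyte genes Tnnt2 was lower (median −0.69; 198 to 720 and 285 to 975), which ended without any of 7 single arrays (adjusted p of up to 0.0772, without trunk E11.5 replicate 1). The other, Myl4, did not pass (−0.21). Nppa, Myh6, Tnni3 and Myl2 lay below the median on all 12 arrays, and Myl7 did not pass the filter.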

How the data were processed

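The authors deposited, for each Affymetrix mouse array, a linear intensity per probe set. Per the submitters' processing notes they come from MAS5 and Affymetrix Expression Console. Versions, and whether a normalization followed, are not given in the sources used here. Detection calls were not used. Per the labels, QIAzol RNA was amplified with a MessageAmp kit. Of 22690 probe sets, 64 controls were left out, and 20380 were annotated to 1 gene and used, 691 to several and 1555 to none. Symbols were checked through Entrez identifiers against RefSeq genes of GRCm38.p6 (29 without a match, 0 changed). Of Msc and Tcf21, RefSeq promoter windows of that build matched Tcf21.

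A probe set was kept if at least 2 of 12 arrays lay above the array median, and the one of highest mean stood for its gene. Log2 signals were tested with limma 3.58.1 in R 4.3.3 (1 mean per group, 6 groups, two-sided, with an intensity trend, 6 residual degrees of freedom and 5.87 from the prior, Benjamini-Hochberg over 7721 genes within each of 13 comparisons, threshold 0.05) and tried on simulated arrays. The number of arrays limits the precision. Lists were written from textbook knowledge; named are the 10 nearest profiles per factor, every measured member of the short bHLH lists and up to 5 (markers: 3) of smallest p elsewhere. Others were named after their values were seen, because leaving out an array ended their call or to complete a small count. The members and lists were chosen with earlier results of these data known. Deviations of equally numbered arrays correlated between −0.30 and 0.17 over 15 pairs of groups, above 0.1 in 2 of them. These values cannot show whether samples of the same replicate number were paired. The main fit used no pairing, and a replicate block was run as an alternative.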

Additional observations from a re-analysis of the deposited data

How the results depend on the processing

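Of 630 values of Msc and Tcf21 under alternatives, 606 kept their direction and side of the threshold, 7 lost a call, 11 gained one and 6 changed sign, over 9 of the 26 results. The head against trunk differences of Msc kept their calls in all 4 comparisons under every alternative run, as did those of Tcf21 over the mean (log2 2.45 to 4.25, adjusted p of up to 0.0019) and at E9.5 (2.62 to 6.55). For Tcf21 at E11.5 the value was 2.59 with log2(signal + 16), 2.20 with signals raised to the array median, 2.85 without probe sets of suffix _s, _x or _a and 2.85 with the 4 arrays of the stage, each with a call (adjusted p = 0.00602, 0.000321, 0.0493 and 0.00718), and 2.62 to 3.07 without single arrays. With the replicate block it was 2.85 and passed (adjusted p = 0.0454); the block changed no other call of the members. At E10.5 Tcf21 lost its call without an intensity trend (3.36, adjusted p = 0.0518) and without E10.5 replicate 1 of both tissues (3.89, adjusted p = 0.255), and gave 3.09 to 3.64 without single arrays. That omission, which leaves 1 array per group and assumes it varies like the others, also ended the first-day call of Msc in trunk (1.90, adjusted p = 0.0541) and turned that of Tcf21 in head to 0.16. Without single arrays the changes of Tcf21 ranged from −0.34 to 0.16 (head, first day), 0.15 to 3.09 (trunk, first day), −0.085 to 0.47 (trunk, second day; −0.0052 with signals raised to the median) and 0.35 to 3.29 (trunk, both days), and their differences between tissues from −3.19 to −0.24 (first day) and −3.70 to −0.76 (both days). Apart from the arrays left out, the causes were not tested. Genes called between head and trunk numbered 808 (447 to 954 over alternatives) for the mean, 457 (240 to 500) at E9.5, 349 (34 to 679) at E10.5 and 160 (57 to 184) at E11.5. Between E9.5 and E11.5 they numbered 369 (172 to 443) in head, 1038 (432 to 1268) in trunk and 114 (57 to 148) for the difference between tissues; between E9.5 and E10.5, 74 (0 to 136) in head, 556 (94 to 611) in trunk and 30 (0 to 89) for the difference; and between E10.5 and E11.5, 76 (4 to 165), 2 (0 to 13) and 0 (0 to 17). Signals below the array median limit what can be said of Tcf21 in trunk and of Msc in trunk at E9.5.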
